A study of Mus musculus with 13 samples.

Results

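The core circadian clock genes are the 10 genes Arntl, Clock, Npas2, Per1, Per2, Per3, Cry1, Cry2, Nr1d1 and Nr1d2. They were taken by name from the 34013 genes counted in bulk RNA sequencing of perivascular adipose tissue (PVAT), the fat around blood vessels, and all 10 passed the filter on low counts that left 17270 genes for testing. The tissue came from mice that had received splenocytes, in 13 libraries. WTS-R mice received cells of wild-type donors (3 libraries, genotype label WT), NS-R mice cells of Nlrp3 KO donors (3 libraries, genotype label Nlrp3 KO), TS-R mice cells of donors with type 2 diabetes (T2DM; 4 libraries, genotype label WT) and NTS-R mice cells of Nlrp3 KO T2DM donors (3 libraries, genotype label Nlrp3 KO). All samples carry the strain label C57BL/6. The labels leave unsaid whose genotype is meant, donor or recipient, and they name neither age, sex, the way diabetes was induced, nor the time of day at which tissue was taken. The libraries were therefore ordered by their Arntl transcripts alone, which does not give a time of day.

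The clock is a feedback loop of transcription. The proteins of Arntl (also called Bmal1) and of Clock, or of its paralog Npas2, bind E-boxes as a pair and drive the Per, Cry and Nr1d genes. PER and CRY proteins then repress that pair, while the REV-ERB receptors encoded by Nr1d1 and Nr1d2 bind ROR elements and repress Arntl, Npas2, Clock and Cry1. In peripheral tissues of the mouse the Nr1d transcripts run opposite to Arntl and Npas2, Per3 and the output gene Dbp crest close to Nr1d1, Per2 crests later, and Cry1 later still. In fat the clock times lipid storage, lipolysis and heat production.

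The promoter windows of 4 members, printed below, hold words that match elements of the clock. RefSeq windows of GRCm38.p6, from 250 bases before to 50 bases after a transcription start, were at hand for 9 of the 10 members (13 windows), Per2 being the other. Both strands were searched for the E-box CACGTG, the E-prime box CACGTT, the D-box TTANGTAA (the site of DBP, TEF and HLF), the ROR elements TAGGTCA and TGGGTCA, and the cAMP response element TGACGTCA. None of these words contains another. Each sequence below reads 5′ to 3′ along the gene's own strand, with matches in capitals, so a match on the opposite strand appears as its reverse complement. Shown are the Arntl window at chr7:113207261-113207560 on the plus strand for its ROR element, that of Cry1 at chr10:85185005-85185304 on the minus strand for its E-box and E-prime box, that of Per3 at chr4:151044616-151044915 on the minus strand for its pair of D-boxes, and that of Nr1d1 at chr11:98775328-98775627 on the minus strand for its E-prime box.
Arntl: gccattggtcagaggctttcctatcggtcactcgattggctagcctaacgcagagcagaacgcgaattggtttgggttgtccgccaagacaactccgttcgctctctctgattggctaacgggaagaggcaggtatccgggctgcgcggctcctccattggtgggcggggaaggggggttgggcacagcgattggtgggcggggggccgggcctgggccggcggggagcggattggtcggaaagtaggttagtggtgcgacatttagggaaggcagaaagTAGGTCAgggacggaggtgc
Cry1: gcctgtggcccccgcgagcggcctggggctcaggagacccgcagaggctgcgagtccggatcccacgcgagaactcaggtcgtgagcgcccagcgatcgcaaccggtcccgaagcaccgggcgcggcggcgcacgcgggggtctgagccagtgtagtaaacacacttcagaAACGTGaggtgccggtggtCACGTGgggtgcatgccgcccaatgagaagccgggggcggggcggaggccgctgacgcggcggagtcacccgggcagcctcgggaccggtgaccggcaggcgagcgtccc
Per3: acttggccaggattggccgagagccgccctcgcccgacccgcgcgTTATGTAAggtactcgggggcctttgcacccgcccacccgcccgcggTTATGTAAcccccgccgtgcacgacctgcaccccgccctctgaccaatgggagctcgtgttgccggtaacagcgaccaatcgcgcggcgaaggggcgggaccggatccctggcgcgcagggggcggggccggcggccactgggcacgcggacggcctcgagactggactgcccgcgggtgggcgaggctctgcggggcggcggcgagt
Nr1d1: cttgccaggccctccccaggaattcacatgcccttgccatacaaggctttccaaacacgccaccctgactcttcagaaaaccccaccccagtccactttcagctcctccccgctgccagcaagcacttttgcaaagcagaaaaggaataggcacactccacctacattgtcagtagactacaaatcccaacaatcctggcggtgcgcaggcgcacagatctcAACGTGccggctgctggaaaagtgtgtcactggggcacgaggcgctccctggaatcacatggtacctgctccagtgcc

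The ROR element TAGGTCA of Arntl began 30 bases after the start. It was found in 1 of the 13 windows of members, and in 2.61% of 32851 windows of the same length. In Cry1 the E-box lay 60 bases and the E-prime box 79 bases before the start. The E-box was found in 2 of the 13 windows (Cry1 and 1 of those of Per1, there 166 bases before the start) and in 7.15% of all windows, and the E-prime box in 3 of the 13 (Cry1, Nr1d1 and Cry2) and in 4.68% of all windows. In Nr1d1 the E-prime box lay 28 bases before the start, and in Cry2 166 bases before it. Per3 held D-boxes 205 and 158 bases before the start, the only window of the 13 with a match, against 2.32% of all windows. The ROR element TGGGTCA (3.98% of windows) and the cAMP response element (1.79%) matched in none of the 13. A match is a word in the sequence and was not tested for binding.

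Several libraries stood apart in content. Totals ran from 14216706 to 37011122 counts per library. Brown adipocyte genes (8 genes, none at 0) summed to 12296 to 18684 CPM (counts scaled to library size) in WTS-R, NS-R and NTS-R and to 3668 to 13883 in TS-R, where replicate 3 was lowest. That library also held the most T and B lymphocyte transcripts (1598 CPM over 8 genes, against 10.9 to 411 elsewhere), TS-R replicate 1 the most skeletal muscle transcripts (9789 CPM over 6 genes, against 10.8 to 1753), and NS-R replicates 1 and 2 airway transcripts (5836 and 11616 CPM over 5 genes, against 0.757 or less). All 4 Y-linked genes examined were at 0 in NS-R replicate 3, and in TS-R replicate 3 all but Ddx3y, at 0.0278 CPM and so under the limit that a count of 0 allows. Both libraries were taken as female. Nlrp3 was at 0.249 to 2.89 CPM in all libraries. Its range was 0.460 to 1.58 CPM in NS-R, against 0.249 to 0.693 CPM in WTS-R. In NTS-R the range was 0.399 to 1.22 CPM, against 0.454 to 2.89 CPM in TS-R. In each pair the ranges overlapped. In bulk tissue, fewer cells of a type and less RNA per cell cannot be told apart.

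Within the activating arm, Arntl and Npas2 spanned a wider range than Clock. CPM values here are scaled by edgeR's TMM factors. Arntl measured 14.4, 18.2 and 18.9 CPM in WTS-R replicates 1 to 3 and at 17.1, 12.99 and 3.65 CPM in NS-R. It measured 3.41, 5.26, 13.02 and 2.98 CPM in TS-R and at 12.8, 0.912 and 2.71 CPM in NTS-R. Every WTS-R library lay above every TS-R and NTS-R library, while NS-R was split, with replicate 3 low. By group mean ± SD the order was WTS-R (17.1 ± 2.43, n = 3), NS-R (11.2 ± 6.88, n = 3), TS-R (6.17 ± 4.67, n = 4) and NTS-R (5.46 ± 6.38, n = 3), and neighbours in that order overlapped. Arntl was 20.7 times higher in WTS-R replicate 3 than in NTS-R replicate 2, whose value rested on 12 counts. The fitted log2 difference of TS-R from WTS-R was -1.47 (SE 0.75), with an edgeR FDR of 0.266.

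Npas2, the paralog that can stand in for Clock, measured 3.72, 5.29 and 7.43 CPM in WTS-R and at 7.68, 5.52 and 1.31 CPM in NS-R. In TS-R it measured 1.05, 1.04, 0.890 and 0.487 CPM, and in NTS-R at 2.45, 0.532 and 0.798 CPM. All TS-R and NTS-R libraries lay below all WTS-R libraries, and NS-R replicate 3 again sat with the low ones. TS-R averaged 0.867 ± 0.263 CPM (SD, n = 4), against 5.48 ± 1.86 for the 3 libraries of WTS-R. The log2 difference of TS-R from WTS-R was -2.66 (SE 0.60), with an edgeR FDR of 0.0624 and a DESeq2 adjusted p of 0.000510. The group means ran WTS-R, NS-R (4.83 ± 3.24), NTS-R (1.26 ± 1.04) and TS-R, with overlap between neighbours.

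Clock, the partner of Arntl, had the smallest range of the 10 genes, with a ratio of 2.39 between its highest and lowest library. Its values were 46.7, 67.8 and 42.5 CPM in WTS-R, 50.4, 36.3 and 39.0 in NS-R, 33.6, 28.4, 29.9 and 41.8 in TS-R, and 56.1, 34.7 and 56.3 in NTS-R. TS-R lay wholly below WTS-R, by a small margin, and the other groups overlapped with both. The log2 difference was -0.66 (SE 0.23) for TS-R against WTS-R (edgeR FDR 0.118) and 0.55 (SE 0.23) for NTS-R against TS-R (edgeR FDR 0.210). The order of means was WTS-R (52.3 ± 13.5), NTS-R (49.0 ± 12.4), NS-R (41.9 ± 7.46) and TS-R (33.4 ± 6.01), and neighbours overlapped.

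**Figure D1:**
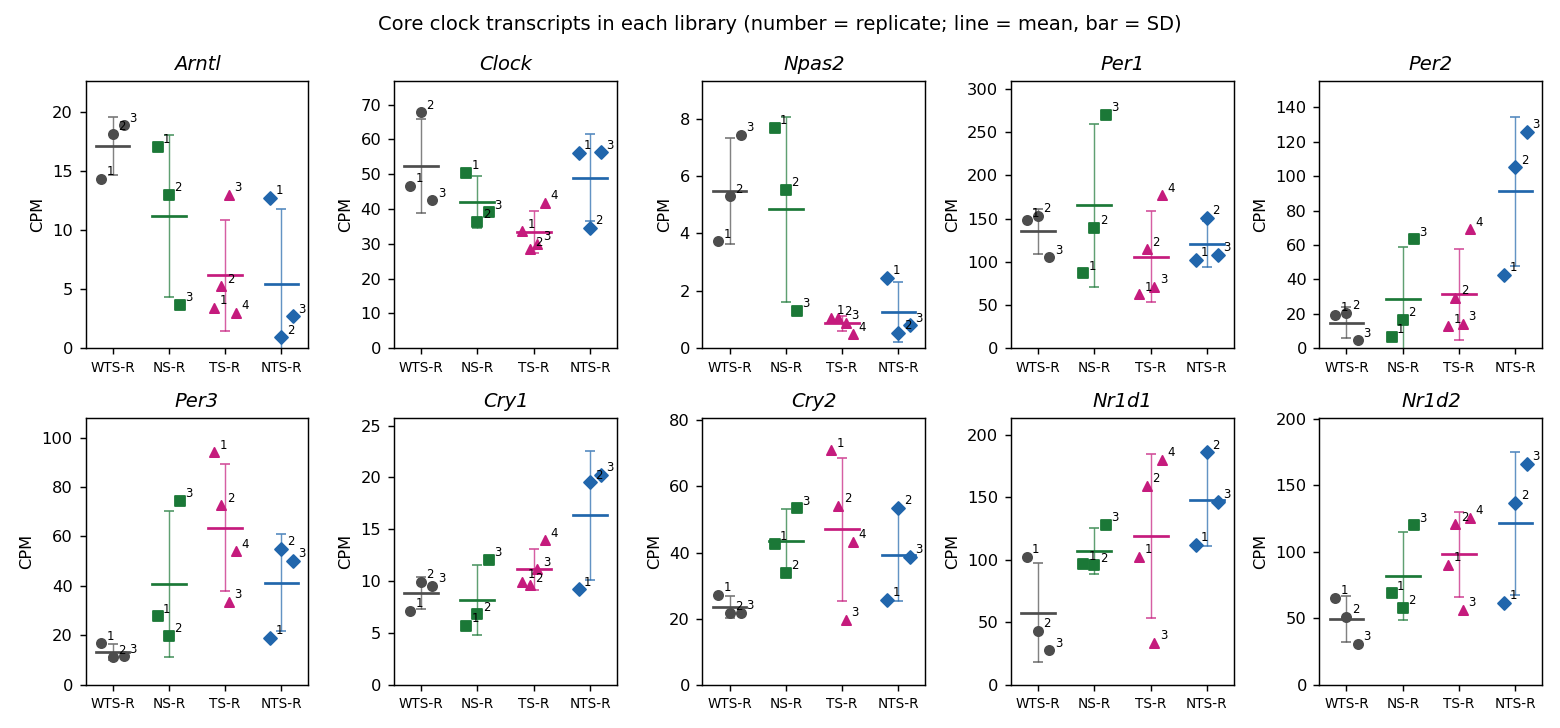
CPM (linear axis from 0) of the 10 clock genes in each library, 1 panel per gene, with the replicate number beside each point, a line at the group mean and a bar of 1 SD that ends at the axis where it would pass below 0. At this TMM scaling, Arntl, Clock and Npas2 in TS-R lie below all WTS-R libraries and Per3 above them (on total counts Arntl and Clock overlap), while NS-R replicate 3 and NTS-R replicate 1 sit away from the other libraries of their groups in most panels.

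Among the repressors, Per3 had the largest fitted difference between TS-R and WTS-R. Per3, the Period gene least needed for rhythm itself, measured 16.9, 11.1 and 11.5 CPM in WTS-R and at 27.7, 19.8 and 74.5 CPM in NS-R. It measured 94.0, 72.6, 33.6 and 54.1 CPM in TS-R and at 18.9, 55.0 and 50.2 CPM in NTS-R. Every library outside WTS-R was above every WTS-R library, and the closest were NTS-R replicate 1 and NS-R replicate 2. The log2 difference was 2.26 (SE 0.52) for TS-R against WTS-R (edgeR FDR 0.0624; DESeq2 adjusted p 0.000229) and 1.60 (SE 0.53) for NS-R against WTS-R (edgeR FDR 0.538). The order of group means was TS-R (63.6 ± 25.8), NTS-R (41.4 ± 19.6), NS-R (40.6 ± 29.6) and WTS-R (13.2 ± 3.20), and of these neighbours only NS-R and WTS-R did not overlap.

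Per2, a Period gene required for a stable rhythm, had the widest range of all 10, 27.4 times between NTS-R replicate 3 and WTS-R replicate 3. It measured 19.4, 20.5 and 4.60 CPM in WTS-R and at 6.41, 16.6 and 63.3 CPM in NS-R. In TS-R it measured 12.7, 29.2, 14.2 and 69.2 CPM, and in NTS-R at 42.6, 105 and 126 CPM. High values came from NTS-R replicates 2 and 3, TS-R replicate 4 and NS-R replicate 3, and NTS-R was the group that stayed above all WTS-R libraries. By mean the order was NTS-R (91.2 ± 43.3), TS-R (31.3 ± 26.3), NS-R (28.8 ± 30.3) and WTS-R (14.8 ± 8.89), with overlap between neighbours. The log2 difference was 1.06 (SE 0.81) for TS-R against WTS-R and 1.55 (SE 0.78) for NTS-R against TS-R, with edgeR FDRs of 0.462 and 0.291.

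Per1, the Period gene that also responds acutely to glucocorticoid and cAMP signals, ordered the libraries like Per2 in 54 of 78 pairs and like Per3 in 38. It measured 148, 153 and 105 CPM in WTS-R, at 86.5, 139 and 270.2 in NS-R, at 62.1, 114, 70.6 and 177 in TS-R, and at 102, 151 and 108 in NTS-R. The groups overlapped throughout, NS-R replicate 3 was highest and TS-R replicate 1 lowest. The means were 165 ± 94.6 in NS-R, 135 ± 26.2 in WTS-R, 120.3 ± 26.6 in NTS-R and 106 ± 52.5 in TS-R, and the log2 difference of TS-R from WTS-R was -0.36 (SE 0.40, edgeR FDR 0.626).

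Cry1 and Cry2 encode the cryptochromes, which carry most of the repression of the Arntl and Clock pair. Cry1 was at 7.11, 9.95 and 9.57 CPM in WTS-R, at 5.70, 6.78 and 12.1 in NS-R, at 9.91, 9.60, 11.2 and 13.9 in TS-R, and at 9.20, 19.5 and 20.3 in NTS-R. Its highest libraries were NTS-R replicates 2 and 3, and all neighbouring groups overlapped in the order NTS-R (16.3 ± 6.19), TS-R (11.1 ± 1.98), WTS-R (8.88 ± 1.54) and NS-R (8.18 ± 3.40). For NTS-R against NS-R the log2 difference was 1.02 (SE 0.35, edgeR FDR 0.505).

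Cry2 was at 27.3, 21.6 and 21.8 CPM in WTS-R, at 42.7, 33.9 and 53.4 in NS-R, at 70.8, 54.1, 19.6 and 43.3 in TS-R, and at 25.6, 53.6 and 38.7 in NTS-R. NS-R lay wholly above WTS-R, and in TS-R replicate 3 alone was below it. The log2 difference from WTS-R was 0.98 (SE 0.37, edgeR FDR 0.143) in TS-R and 0.86 (SE 0.39, edgeR FDR 0.911) in NS-R. Its order of means was TS-R (47.0 ± 21.5), NS-R (43.3 ± 9.76), NTS-R (39.3 ± 14.0) and WTS-R (23.6 ± 3.25), and neighbours overlapped.

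Nr1d1 and Nr1d2 encode REV-ERB alpha and beta, the receptors that link the clock to fat metabolism. Nr1d1 was at 102, 43.4 and 27.5 CPM in WTS-R, at 96.6, 95.6 and 128 in NS-R, at 102, 159, 33.6 and 180.1 in TS-R, and at 112, 186 and 146 in NTS-R. The libraries under 50 CPM were WTS-R replicates 2 and 3 and TS-R replicate 3, and the lowest NTS-R library exceeded the highest of WTS-R. The means were 148 ± 36.9 in NTS-R, 119 ± 65.6 in TS-R, 107 ± 18.5 in NS-R and 57.8 ± 39.5 in WTS-R, with overlap between neighbours, and the log2 difference of TS-R from WTS-R was 1.03 (SE 0.52, edgeR FDR 0.261). Nr1d1 shares 263 exon bases, 8.55% of its exons, with Thra on the opposite strand, and the strand setting of the counting is not given in the sources used here, so some reads may belong to either gene. Thra was at 113 to 115 CPM in WTS-R and at 27.2 CPM, its lowest, in TS-R replicate 3.

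Nr1d2 was at 65.4, 51.4 and 31.0 CPM in WTS-R, at 68.8, 57.9 and 119.9 in NS-R, at 90.4, 121, 56.4 and 126 in TS-R, and at 61.7, 137 and 166 in NTS-R. It ordered the libraries much as Nr1d1 did, with WTS-R replicate 3 lowest in both. The log2 difference of TS-R from WTS-R was 0.99 (SE 0.40, edgeR FDR 0.173). By mean the order was NTS-R (122 ± 53.9), TS-R (98.3 ± 32.0), NS-R (82.2 ± 33.1) and WTS-R (49.3 ± 17.3), and neighbours overlapped.

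Compared per kilobase of exon, so that genes of different length can be set side by side, Per1 was the most abundant clock transcript in WTS-R (24.0 CPM per kb), ahead of Nr1d1 (18.8) and Nr1d2 (9.11). Arntl was at 2.28 and Npas2 at 1.14 CPM per kb there. In NTS-R the order at the top was Nr1d1 (48.1), Nr1d2 (22.5), Per1 (21.4) and Per2 (15.6), and Arntl and Npas2 were the lowest, at 0.726 and 0.263 CPM per kb. Per2 was thus close to Arntl in WTS-R (2.54 against 2.28) and far above it in NTS-R.

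Read along the cycle, the 13 libraries were ordered by Arntl. From low to high the order was NTS-R replicates 2 and 3, TS-R replicates 4 and 1, NS-R replicate 3, TS-R replicate 2, NTS-R replicate 1, NS-R replicate 2, TS-R replicate 3, WTS-R replicate 1, NS-R replicate 1, and WTS-R replicates 2 and 3. A gap separated the 6 libraries at 5.26 CPM or less from the 7 at 12.8 CPM or more, and TS-R, NS-R and NTS-R each had libraries on both sides of it. WTS-R libraries were all at the high end. The log2 ratio of Nr1d1 to Arntl was 7.04 in NTS-R replicate 2 at one end and 0.53 in WTS-R replicate 3 at the other. Because Arntl set the order and is the divisor, part of this fall is built in. The level of Arntl alone cannot tell its rise from its fall, so the order does not give a time of day.

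Arntl and Npas2 ordered the libraries alike, and the Nr1d genes ordered them the other way. Of the 78 pairs of libraries, Arntl and Npas2 were in the same order in 65, whereas Arntl and Nr1d2 were in the same order in 11 and Arntl and Nr1d1 in 12. For Per2 the count with Arntl was 15, for Per3 and Cry1 17 each, and for Cry2 21. Clock (46 of 78) and Per1 (35 of 78) had little order in common with Arntl. Within the opposite arm, Nr1d1 and Nr1d2 shared the order in 69 pairs, Per3 and Cry2 in 68, Per2 and Nr1d1 in 65, and Per2 and Cry1 in 62. Per2 and Nr1d2 also shared it in 62 pairs, and the Nr1d genes shared it with Per3, Cry1 or Cry2 in 53 to 60. The other pairs among Per2, Per3, Cry1 and Cry2 shared little order. The counts were 40 for Cry1 and Cry2, 46 for Per2 and Per3, 46 for Per2 and Cry2, and 48 for Per3 and Cry1. These counts describe 13 libraries whose genes share depth and tissue content.

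**Figure D2:**
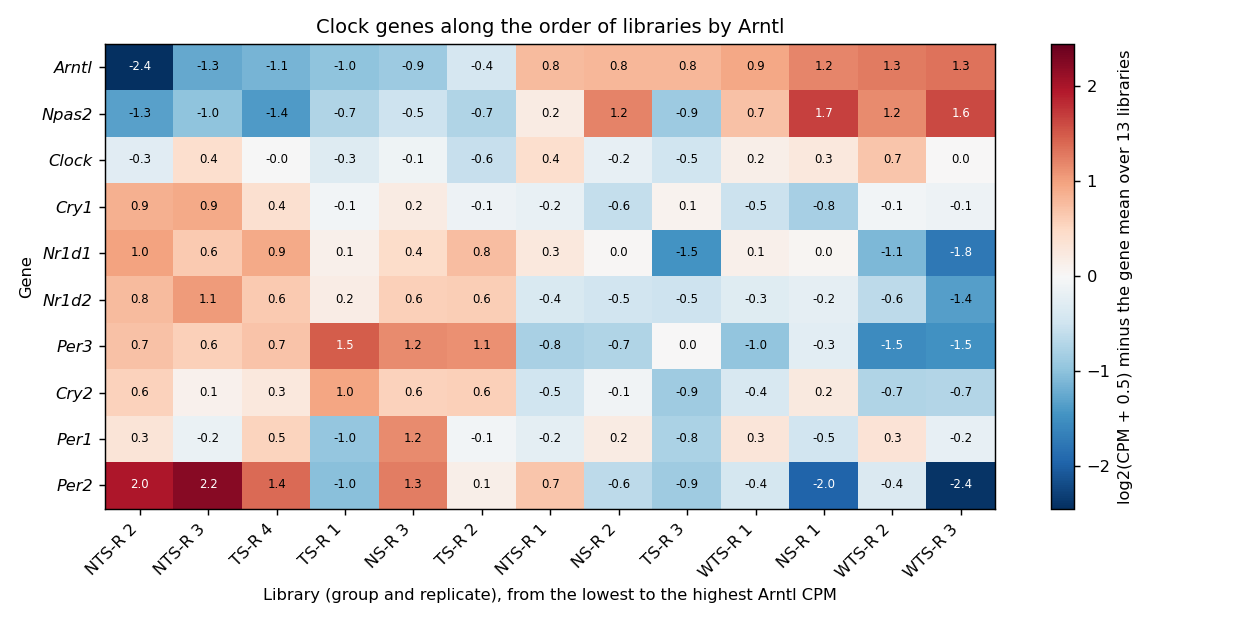
Each cell gives log2(CPM + 0.5) of a clock gene in a library less the gene's mean over 13 libraries, with libraries from the lowest to the highest Arntl CPM along the horizontal axis. Arntl and Npas2 are low on the left and high on the right, Nr1d1, Nr1d2, Per3 and Per2 mostly the reverse, and TS-R replicate 1 combines high Per3 with low Per2.

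Libraries on the same side of the Arntl gap differed in the later genes of the cycle, but they were not equal in Arntl. Among the 6 with low Arntl, Per2 reached 126, 105, 69.2 and 63.3 CPM in NTS-R replicates 3 and 2, TS-R replicate 4 and NS-R replicate 3, but at 29.2 and 12.7 CPM in TS-R replicates 2 and 1. The latter 2 had Per3 at 72.6 and 94.0 CPM, beside 50.2 to 74.5 CPM in the 4 libraries rich in Per2, and Cry2 at 54.1 and 70.8 CPM, beside 38.7 to 53.6 CPM. The log2 ratio of Per2 to Nr1d1 was -0.22 in NTS-R replicate 3 and -0.82 in NTS-R replicate 2, against -2.96 in TS-R replicate 1 and -2.43 in TS-R replicate 2. Arntl ran from 0.912 to 5.26 CPM over these 6 libraries, with TS-R replicate 2 at the top. Whether the lower Per2 of that library goes with its Arntl level was not tested. TS-R replicate 4, TS-R replicate 1 and NS-R replicate 3 were close in Arntl (2.98, 3.41 and 3.65 CPM). Among them only TS-R replicate 1 had low Per2. TS-R replicate 1 is the library with the most skeletal muscle transcripts, and their part in its values was not tested.

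At the end with high Arntl, WTS-R replicate 3 had the lowest Per2, Nr1d1 and Nr1d2 of all and the highest log2 ratio of Cry1 to Per2 in CPM (0.98). Per kilobase of exon, Cry1 exceeded Per2 in 4 libraries, WTS-R replicate 3 (2.87 against 0.785 CPM per kb), NS-R replicate 1 (1.71 against 1.09), TS-R replicate 1 (2.97 against 2.17) and TS-R replicate 3 (3.34 against 2.42). NS-R replicate 1 had nearly as little Per2 (6.41 CPM) with Nr1d1 at 96.6 CPM, the lowest log2 ratio of Per2 to Nr1d1 of any library (-3.81). NTS-R replicate 1 had Arntl at 12.8 CPM together with Per2 at 42.6 and Nr1d1 at 112 CPM. TS-R replicate 3 joined high Arntl (13.02 CPM) to low Npas2 (0.890 CPM), a pairing not seen in the other 6 libraries of that side, where Npas2 was at 2.45 CPM or more. It is the library richest in lymphocyte transcripts and poorest in brown adipocyte transcripts, and the part of these in its clock values was not tested.

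**Figure D3:**
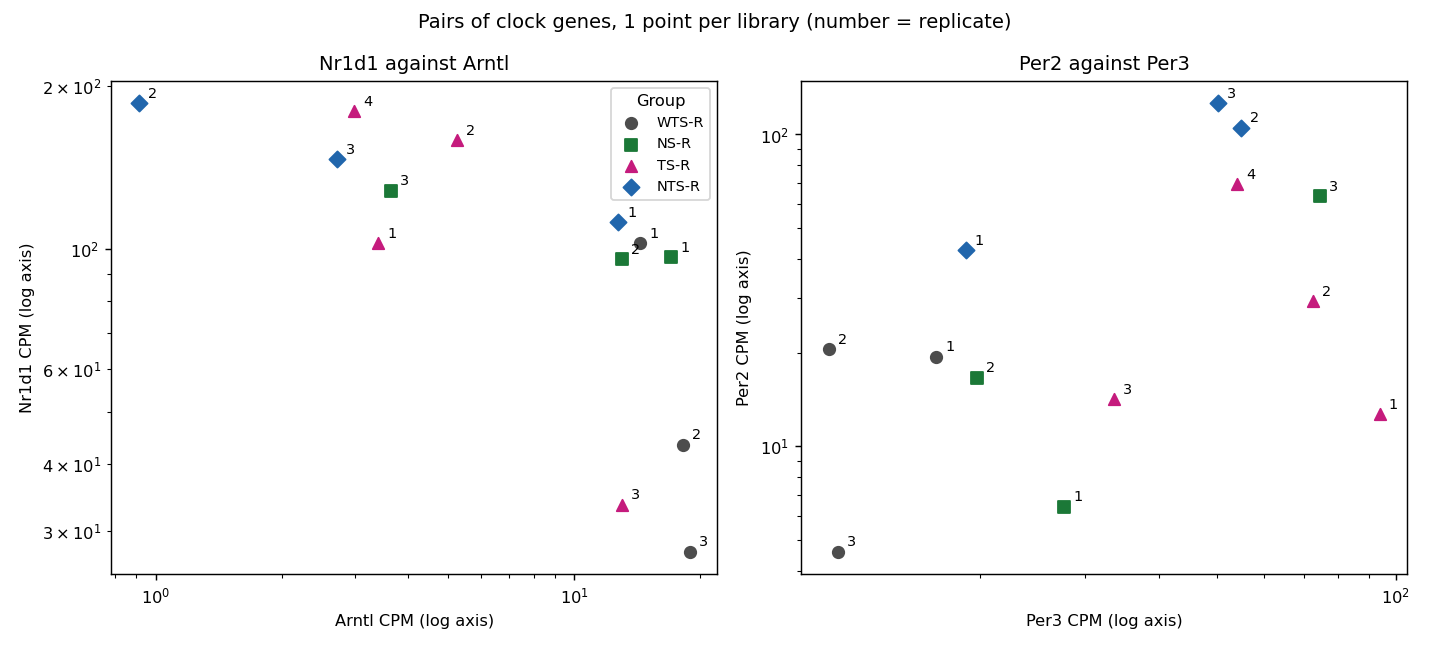
CPM of Nr1d1 against Arntl (left) and of Per2 against Per3 (right), 1 point per library with its replicate number, colour and shape by group, log axes. Nr1d1 is highest where Arntl is lowest, and TS-R replicates 1 and 2, with Per3 at 94.0 and 72.6 CPM, lie below NS-R replicate 3 in Per2.

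TS-R against WTS-R sets recipients of cells of diabetic donors beside recipients of wild-type cells. The time of day of tissue collection is not in the labels. In this and the comparisons below, a difference in that time between groups cannot be told apart from one due to the donor cells. Of the clock genes, the activators Arntl, Clock and Npas2 lay lower in every TS-R library than in any of WTS-R and Per3 lay higher, so 4 of 10 had groups that did not overlap, against 17.0% of the 17270 genes tested. Scaled by total counts alone, Arntl and Clock overlapped (TS-R replicate 3 at 15.96 CPM of Arntl, WTS-R replicate 1 at 13.5 CPM), and the 4 were Npas2, Per3, Cry1 and Nr1d2, the latter 3 higher in TS-R, against 21.6% of all genes. At an edgeR FDR under 0.05 none of the 10 passed, against 0% of all genes. At an unadjusted edgeR p under 0.05, 5 of 10 passed (Clock and Npas2 lower, Per3, Cry2 and Nr1d2 higher), against 22.3% of all genes. DESeq2 called 2 of 10 (Npas2 lower, Per3 higher) against 11.1% of all genes, and limma's voomWithQualityWeights called the same 5 as the unadjusted p, against 22.1%. The median log2 difference was 0.65 over the members and 0.033 over all genes.

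The calls turned on the filter, the scaling and the libraries kept. With all libraries, edgeR called Npas2 and Per3 with no filter on low counts (FDR 0.0214 and 0.0186, against 2.61% of all genes) and on total counts (FDR 0.0480 and 0.0412, against 6.68%). Without TS-R replicate 1 it called Npas2 (-2.75, FDR 0.0294) and Per3 (2.02, FDR 0.0330), against 11.2% of all genes, and without TS-R replicate 4 both as well (-2.47, FDR 0.0458, and 2.33, FDR 0.0375), against 7.24%. Per3 alone was called without the female libraries (FDR 0.0308, against 0.281% of all genes) and without TS-R replicates 1 and 3 together (FDR 0.0499, against 3.94%). The sum of 5 plasma cell genes, none at 0, differed along with the clock genes: it was 4.68 to 12.2 CPM in WTS-R and 526 to 3716 CPM in TS-R, in NS-R 7.73 and 15.2 CPM for replicates 1 and 2 but 751 CPM for replicate 3, and in NTS-R 41.3 CPM for replicate 1 against 449 and 554 CPM in the other NTS-R libraries. TS-R replicate 3, with the largest sum, was an exception in its high Arntl. The part of these cells in the clock values was not tested.

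NTS-R against TS-R sets cells of Nlrp3 KO T2DM donors beside cells of T2DM donors, and it shares the TS-R libraries with the comparison above. No member had groups that did not overlap, against 12.6% of all genes, and none passed the edgeR FDR (0% of all genes). Clock alone passed at an unadjusted p under 0.05, where it was higher in NTS-R, against 19.7% of all genes. DESeq2 and voomWithQualityWeights called no member, against 8.29% and 9.48% of all genes. The largest fitted difference was that of Per2 (1.55). Next came Per3 (-0.62, SE 0.49), Clock and Cry1 (0.55 each) and Npas2 (0.54, SE 0.61), and Arntl was at -0.19 (SE 0.76). The direction for Arntl rested on the libraries kept: it was 0.46 without TS-R replicates 1 and 3.

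NS-R against WTS-R sets Nlrp3 KO donors beside wild-type donors without diabetes. Per3 and Cry2 were higher in all NS-R than in all WTS-R libraries, 2 of 10 against 14.1% of all genes, and the same 2 passed at an unadjusted edgeR p under 0.05, against 5.31%. None passed the edgeR FDR (0%), DESeq2 (1.10% of all genes) or voomWithQualityWeights (0.0811%). Nr1d1 was at 0.87 (SE 0.54), Nr1d2 at 0.72 (SE 0.42) and Arntl at -0.62 (SE 0.80) on the log2 scale. Replicate 3, the female NS-R library, gave the highest Per1, Per2, Per3, Cry1, Cry2, Nr1d1 and Nr1d2 and the lowest Arntl and Npas2 of its group. Without the female libraries the Per2 difference was -0.39 in place of 0.92, and the Npas2 difference 0.26 in place of -0.19. That left NS-R replicates 1 and 2, the airway-rich libraries (5836 and 11616 CPM of airway transcripts, against 0.207 in replicate 3). Replicate 3 also held more plasma cell transcripts (751 CPM, against 7.73 and 15.2). Within NS-R, sex and these contents cannot be told apart.

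NTS-R against NS-R, which sets diabetic beside non-diabetic Nlrp3 KO donors, shares libraries with both comparisons before it. Groups overlapped for all 10 members (15.2% of all genes did not overlap). Npas2 (-1.92, SE 0.65, edgeR FDR 0.491) and Cry1 passed at an unadjusted p under 0.05, against 6.36% of all genes, and none passed the edgeR FDR (0%), DESeq2 (1.21%) or voomWithQualityWeights (0.0695%). Per2 was at 1.69 (SE 0.85). Without the female libraries, and so without NS-R replicate 3, edgeR called Npas2 (-2.35, FDR 0.0383) and Cry1 (1.39, FDR 0.0474), against 4.26% of all genes. Without NS-R replicate 3 alone it called Npas2 (FDR 0.0496), against 3.10% of all genes. Both settings leave only the airway-rich libraries in NS-R, so sex, airway content and plasma cell content cannot be told apart there.

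Whether the difference between diabetic and other donors varied with donor genotype was tested as an interaction, NTS-R less NS-R minus TS-R less WTS-R. For Per3 it was -2.21 (SE 0.72, edgeR FDR 0.160; DESeq2 adjusted p 0.0384), since Per3 differed by 2.26 between TS-R and WTS-R and by 0.044 between NTS-R and NS-R. For Clock it was 0.89 (SE 0.34, edgeR FDR 0.196). These 2 of 10 passed at an unadjusted p under 0.05, against 18.3% of all genes. None passed the edgeR FDR (0%), DESeq2 called Per3 against 6.30% of all genes, and voomWithQualityWeights called none against 10.8%.

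**Figure D4:**
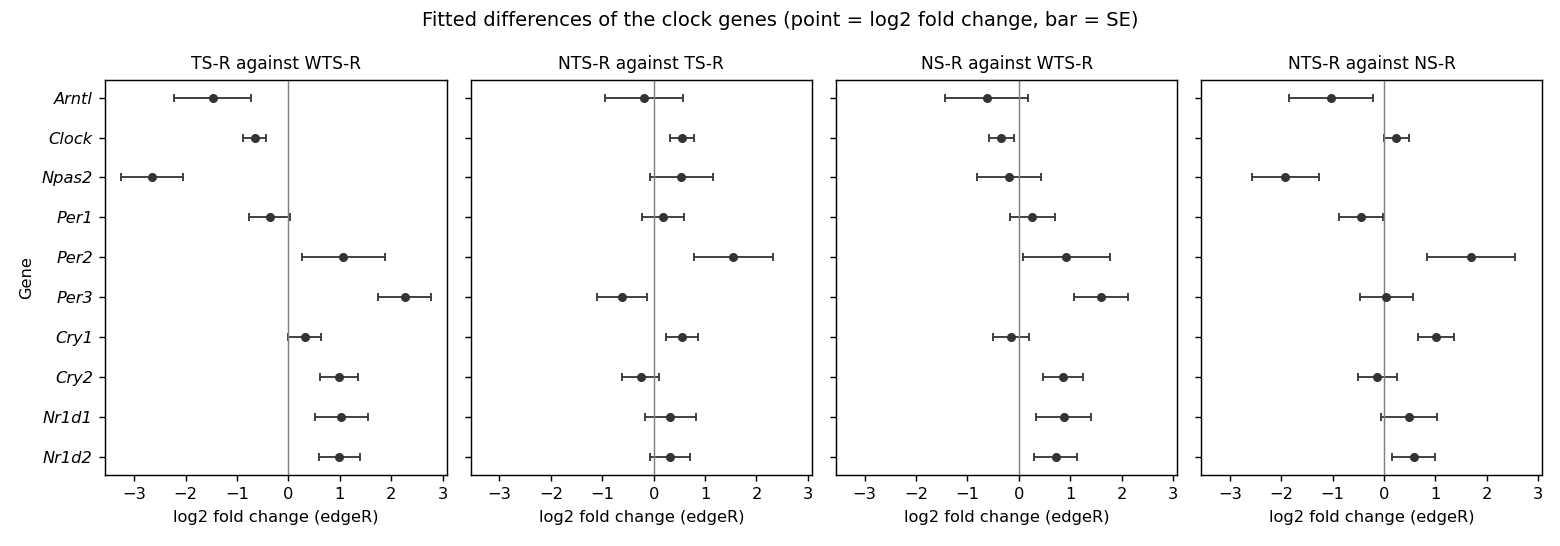
Fitted log2 differences (points) with their SE (bars) from the edgeR fit of 13 libraries, 1 panel per comparison, with a line at 0. In TS-R against WTS-R, Npas2 (-2.66) and Per3 (2.26) lie farthest from 0, and in NTS-R against NS-R, Npas2 (-1.92) and Per2 (1.69) do.

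Among genes driven by the clock, Dbp had the largest fitted difference between TS-R and WTS-R. Of 10 output genes, 5 had higher and 1 had lower TS-R levels, relative to WTS-R, at an unadjusted edgeR p under 0.05 (22.3% of all genes), none passed the FDR, DESeq2 called 4 higher and 1 lower (11.1% of all genes), and 3 were higher and 1 lower with no overlap (17.0% of all genes). The list's median log2 difference was 1.19. Dbp, a PAR bZIP factor that binds D-boxes such as those printed for Per3, measured 11.2, 4.23 and 3.59 CPM in WTS-R and at 15.0, 18.3 and 49.4 in NS-R. It measured 79.3, 90.9, 23.8 and 58.1 CPM in TS-R and at 13.5, 98.1 and 59.8 in NTS-R. The lowest TS-R value was more than the highest in WTS-R, and the log2 difference was 3.30 (SE 0.74, edgeR FDR 0.0624).

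Nfil3, which competes with DBP for D-boxes and is a target of REV-ERB, ran the other way. It measured 40.6, 44.8 and 43.6 CPM in WTS-R, at 36.5, 29.9 and 14.7 in NS-R, at 13.9, 6.30, 7.90 and 8.83 in TS-R, and at 39.3, 7.91 and 17.2 in NTS-R. TS-R replicate 3 was low in Nfil3 with the rest of its group although its Arntl was high. The log2 difference of TS-R from WTS-R was -2.23 (SE 0.46, edgeR FDR 0.0624). Bhlhe41 and Bhlhe40, the DEC repressors that bind E-boxes, were at 28.4 ± 10.6 and 60.7 ± 19.7 CPM in TS-R (n = 4) against 5.18 ± 1.15 and 23.3 ± 6.03 in WTS-R (n = 3), log2 differences of 2.44 (SE 0.50) and 1.37 (SE 0.34), both at an edgeR FDR of 0.0624.

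**Figure D5:**
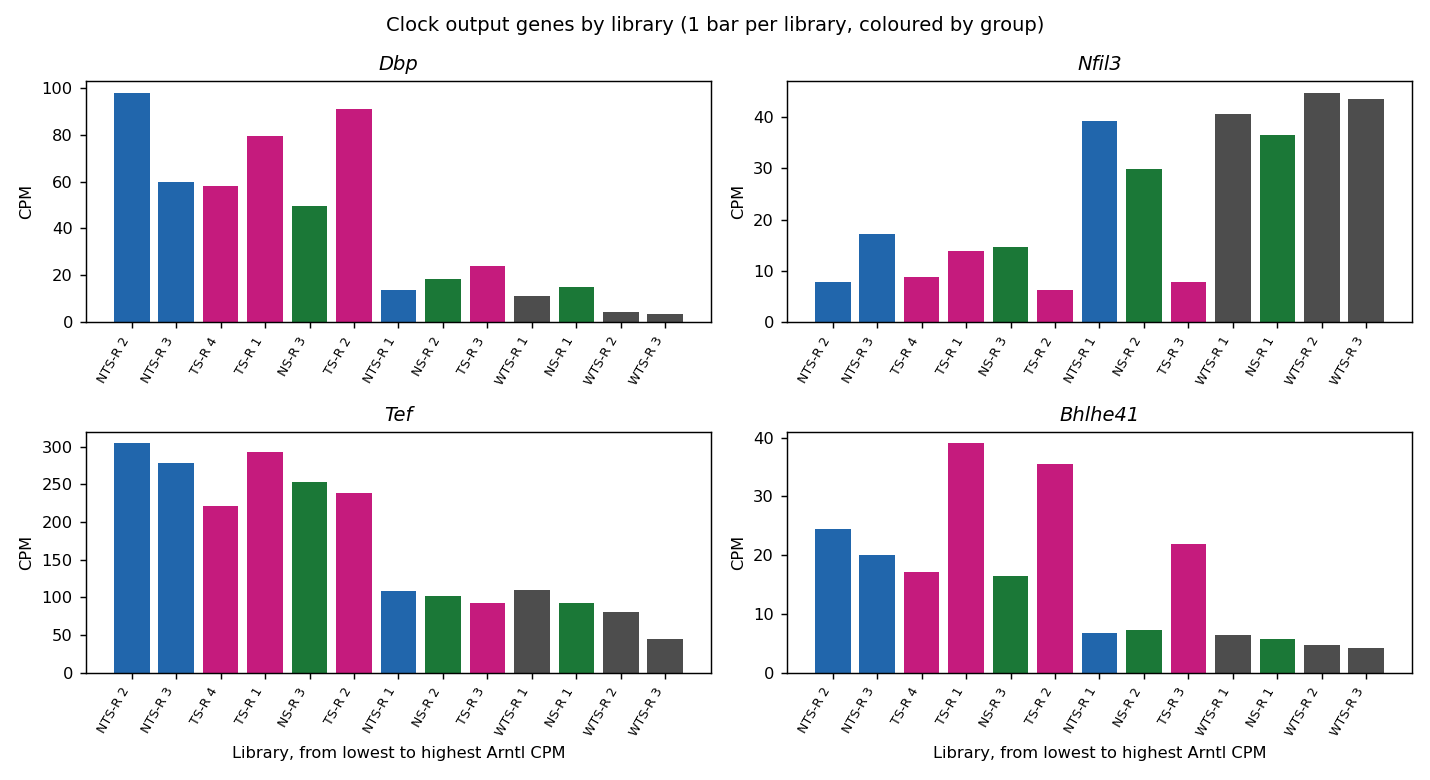
CPM (bars from 0) of the output genes Dbp, Nfil3, Tef and Bhlhe41 in each library, ordered from the lowest to the highest Arntl CPM, with the library's group in its label and colour. Dbp and Tef are high in the 6 libraries with Arntl at 5.26 CPM or less, and Nfil3 is low there and in TS-R replicate 3.

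The modifier list held regulators of clock protein stability and other clock cofactors. Of 11 listed modifiers 10 were tested, and in TS-R against WTS-R none passed at an unadjusted edgeR p under 0.05, with a median log2 difference of -0.015. Among those with the smallest p were Nono (0.49, SE 0.27) and Fbxl21 (-0.58, SE 0.54). Fbxl21 was scarce, at 0.278 to 0.670 CPM in TS-R and 0.320 to 0.995 CPM in WTS-R. Of 8 genes that respond to glucocorticoid, a signal that resets peripheral clocks, 2 were lower at an unadjusted p under 0.05 (22.3% of all genes passed). They were Mt2 (-2.04, SE 0.73) and Sgk1 (-0.96, SE 0.36), and none of the 8 passed the FDR. Mt2 was scarce too, at 0.139 to 0.568 CPM in TS-R and 0.944 to 2.05 CPM in WTS-R, which limits its precision. Fkbp5, a sensitive glucocorticoid target, was at 0.44 (SE 0.32) in that comparison and at 2.11 (SE 0.35, edgeR FDR 0.151, DESeq2 adjusted p 1.22e-05) in NTS-R against NS-R. The list was mixed in the latter. At an unadjusted edgeR p under 0.05, 2 of the 8 were higher and 1 lower, against 6.36% of all genes. Groups did not overlap for 3 that were higher and 2 that were lower, against 15.2%. DESeq2 called Fkbp5 alone, against 1.21%.

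Of 8 activity-responsive genes, 2 were higher (Egr2, 1.88, SE 0.49, and Egr1, 1.75, SE 0.63) and 1 lower (Crem, -0.66, SE 0.25) in TS-R, relative to WTS-R, at an unadjusted edgeR p under 0.05, against 22.3% of all genes, and 0 passed the FDR. In NS-R against WTS-R 6 of the 8 were higher at that level, against 5.31% of all genes, with a median log2 difference of 2.11. NTS-R against NS-R shares those NS-R libraries. There 7 of the 8 were lower at that level, against 6.36% of all genes, with a median log2 difference of -2.80. DESeq2 called 6 of them lower, against 1.21% of all genes. Per1, the member that shares cAMP-responsive control with these genes by background knowledge, was at -0.44 (SE 0.43) there. In NTS-R against TS-R, which shares the NTS-R libraries, 5 of the 8 were lower at that level, against 19.7% of all genes. DESeq2 called 4 of the list lower in it, against 8.29% of all genes.

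The genes that ordered the libraries most like a member were sought among 11432 other genes with a mean of at least 5 CPM. For Arntl they were Cars2 (68 of 78 pairs in the same order), Lrrc8d (67), Gm10762 and Tbc1d31 (66 each), C1qtnf6 (65) and Alg14 (64, tied with others). For Nr1d1 they were Adgrg2 and Slc5a6 (69 each) and Aacs, Ankrd27, Pcsk4 and Zfp970 (68 each). Npas2, with a mean under that level, matched Arntl in 65 pairs, and Nr1d2 matched Nr1d1 in 69, which lies within the range of these matches.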

How the data were processed

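PVAT mRNA of recipient mice was sequenced as 13 paired-end libraries after TRIzol extraction, per the labels' protocols. The authors deposited whole-number read counts for each gene and library, made with HISAT2 and featureCounts, per the submitters' processing notes. For versions, genome build, annotation, strand setting and filters: not given in the sources used here. Identifiers were matched to mouse symbols for 33302 of 34013 genes. Groups follow the sample titles. No label ties a library to an animal of its own, so p-values reflect only how these samples vary, which may be technical. Totals were 14216706 to 37011122 counts; the limit that a 0 allows is 3 counts (counting error only). No pair of libraries in a group matched within sampling noise (lowest chi-square per degree of freedom 32.4).

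All 13 libraries entered a single edgeR 4.0.16 quasi-likelihood fit (R 4.3.3, TMM, filterByExpr, 17270 genes, common biological coefficient of variation 0.389) with 5 contrasts and Benjamini-Hochberg adjustment over all genes tested at 0.05. SE is the log2 fold change divided by the square root of F. CPM are counts scaled to TMM-adjusted totals. Groups do not overlap where the lowest library of one is above the highest of the other. DESeq2 1.42.0 (Wald test), limma 3.58.1 (voomWithQualityWeights), other scalings and filters, a replicate block and left-out libraries were alternatives, and leaving out TS-R replicates 1 and 3 together was chosen after seeing the data. The pipeline was tested on simulated data. Exon lengths and overlaps come from GENCODE M21 (GRCm38), promoter windows from RefSeq (GRCm38.p6).

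Members, gene lists and markers were chosen with earlier results of these data known. By the naming rule, all members are named, and from each other list up to 4 genes with the smallest unadjusted p in TS-R against WTS-R, except some that are not reported here. For Arntl and Nr1d1 the 6 genes that order most pairs of libraries alike are named. Fkbp5 in NTS-R against NS-R and the plot of Tef were picked after their values were seen.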

Additional observations from a re-analysis of the deposited data

Results flagged for a closer look

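Genes of the clock and related lists (44 in all) were checked in TS-R, the group of 4 libraries, for a library that lies far from the others by Dixon's test, which flags about 1 in 20 groups by chance. None of the 10 clock genes was so marked. There were 3 such values. In TS-R replicate 3, the clock output gene Hlf was at 13.7 CPM with the nearest library at 36.5 CPM (gap 0.859 of the range) and the PER-binding factor Nono at 249.6 CPM with the nearest at 128 CPM (gap 0.831). In TS-R replicate 2, the activity-responsive gene Junb was at 95.7 CPM with the nearest at 44.4 CPM (gap 0.968).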

How the results depend on the processing

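With edgeR on all libraries 0 genes were called in each comparison, and RLE scaling and a robust fit also gave 0. In TS-R against WTS-R, genes called were 1154 on total counts (clock genes 2), 889 with no filter on low counts (2), 1906 with DESeq2 (2), 3816 with voomWithQualityWeights (5), 50 without the female libraries (1) and 694 without TS-R replicates 1 and 3 (1), and 0 to 1906 with 1 library left out (0 to 2; 1906 without TS-R replicate 1, 1238 without replicate 4). In NTS-R against TS-R they were 404 with no filter, 1429 with DESeq2, 1638 with voomWithQualityWeights, 343 without TS-R replicates 1 and 3, and 0 to 1018 with 1 library left out (1018 without TS-R replicate 1, 880 without replicate 4). In NS-R against WTS-R they were 138 with no filter, 190 with DESeq2, 14 with voomWithQualityWeights, 674 without the female libraries and 0 to 503 with 1 left out (503 without NS-R replicate 3). In NTS-R against NS-R they were 126 with no filter, 208 with DESeq2, 12 with voomWithQualityWeights, 5 with the libraries of those groups alone, 758 without the female libraries (clock genes 2), 3 without TS-R replicates 1 and 3 and 0 to 563 with 1 left out (clock genes 0 to 1; 563 without NS-R replicate 3). For the interaction they were 92 with no filter, 1086 with DESeq2 (clock genes 1), 1872 with voomWithQualityWeights, 401 without the female libraries, 150 without TS-R replicates 1 and 3 and 0 to 517 with 1 left out (517 without TS-R replicate 1, 298 without NS-R replicate 3, 71 without TS-R replicate 4). The causes were not tested.

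Same-numbered libraries deviated together (correlation over 0.1) in 6 of 18 pairs (-0.300 to 0.307). A library correlated best with its own number in 15 of 36 tries. Some best matches arise without pairing, so this check cannot settle whether the numbers pair the samples. The main fit used no replicate block. With a replicate block edgeR called 784 genes for TS-R against WTS-R, 76 for NTS-R against TS-R and 19 for the interaction, no clock gene among them, and the interaction changed sign for Arntl (-0.040) and Per1 (0.37).

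Clock genes whose groups do not overlap numbered 8 in TS-R against WTS-R without TS-R replicates 1 and 3, against 40.1% of all genes, and 10 in NS-R against WTS-R without the airway-rich libraries (1 NS-R library left), against 58.7%. In NTS-R against NS-R they were 1 on total counts (13.1% of all genes), 5 without the female libraries (32.0%) and 2 without the airway-rich libraries (49.5%). With 1 library left out they were 0 to 4 in NTS-R against TS-R (4 without NTS-R replicate 1, against 22.5% of all genes), 2 to 5 in NS-R against WTS-R (5 without WTS-R replicate 1, against 20.5%) and 0 to 6 in NTS-R against NS-R (6 without NTS-R replicate 1, against 26.6%, and 5 without NS-R replicate 3, against 32.0%).

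Of the clock genes' fold changes under other settings, 1121 kept direction and side of the threshold, 21 newly passed it and 48 changed sign. Total counts gave Per1 -0.089 in NTS-R against TS-R. VoomWithQualityWeights gave Nr1d2 -0.091 in NTS-R against TS-R, Npas2 0.066 and Per2 -0.15 in NS-R against WTS-R, and Arntl -0.25 and Per1 0.066 for the interaction. Without the female libraries Arntl was 0.52 in NTS-R against TS-R. In NS-R against WTS-R Npas2 was then 0.26, Per1 -0.27 and Per2 -0.39, in NTS-R against NS-R Per1 was 0.10 and Cry2 0.040, and for the interaction Per1 was 0.30. Without the airway-rich libraries Cry1 was 0.44 in NS-R against WTS-R, Arntl 0.59 and Per3 -0.86 in NTS-R against NS-R, and Per2 -0.54 for the interaction. Without TS-R replicates 1 and 3 Per1 was 0.070 for TS-R against WTS-R. The NTS-R less TS-R difference of Arntl was then 0.46, of Per1 -0.25 and of Nr1d1 -0.16.

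With 1 library left out, sign changes gave these ranges. In NTS-R against TS-R they were -1.77 to 0.54 for Arntl, -0.38 to 0.90 for Npas2, -0.0096 to 0.54 for Per1 and -0.54 to 0.012 for Cry2. In NS-R against WTS-R they were -0.68 to 0.23 for Npas2, -0.54 to 0.083 for Cry1, -0.29 to 0.60 for Per1 and -0.40 to 1.43 for Per2. In NTS-R against NS-R they were -0.28 to 0.82 for Per3, -0.77 to 0.11 for Per1 and -0.41 to 0.11 for Cry2. For the interaction they were -0.41 to 0.48 for Per1, -1.13 to 1.17 for Arntl and -0.18 to 1.23 for Npas2. Total counts moved the median log2 difference of all genes from 0.033 to 0.31 for TS-R against WTS-R, from -0.031 to -0.33 for NTS-R against TS-R and from -0.059 to -0.41 for the interaction. They also moved the rank by Arntl of 7 of 13 libraries. The lowest counts behind a clock value were 7 for Npas2 and 12 for Arntl, which limits the precision of both.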
